A study of Mus musculus with 12 samples.

Results

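Peaks of histone H3 trimethylated at lysine 4 (H3K4me3) were compared with peaks of histone H3 acetylated at lysine 27 (H3K27ac) in fetal liver of C57BL/6 mouse embryos at embryonic day 14.5. All peaks of the 2 H3K4me3 libraries (14027 in replicate 1 and 16886 in replicate 2) and of the 2 H3K27ac libraries (28387 and 23733) on chromosomes 1 to 19, X and Y entered the comparison, 83033 of the 353805 peaks in the 11 lists of the series. The study profiled 12 samples. Whole fetal liver of that strain and day gave ChIP-seq libraries for H3K4me1 (3), H3K4me2 (2), H3K4me3 (2) and H3K27ac (2) and 1 input library, which was not analysed here. Red cell precursors at the proerythroblast stage, of the same strain and day, gave 2 libraries of ATAC-seq, an assay in which transposase inserts tags into open chromatin. No group was treated or carried a named allele. The sample labels and the protocol give different catalogue numbers for the H3K4me3 and H3K27ac antibodies of the same supplier, and different suppliers for the H3K4me2 antibody. How many embryos went into a library, and whether replicates came from separate embryos, is not given in the sources used here, so any spread or p-value covers only these libraries and may be technical.

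H3K4me3 is found mainly at the promoters of genes, where it sits on the nucleosomes around the transcription start site. H3K27ac is placed by the acetyltransferases p300 and CBP on active promoters and on active enhancers, and long H3K27ac stretches are known around genes that define a cell type. H3K4me1 is typical of enhancers and of the flanks of promoters, and H3K4me2 of both. Red cells are mostly made in the liver at this stage, which also holds hepatoblasts, endothelium, macrophages and other blood cells. Libraries of whole tissue average over these cells: fewer cells with a mark and less of the mark per cell cannot be told apart, and 2 marks at 1 position need not lie in the same cells.

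Each H3K4me3 peak was put in 1 of 4 classes by the H3K27ac peaks that shared at least 1 bp with it. It had no H3K27ac, H3K27ac that stayed inside both H3K4me3 edges, H3K27ac that passed 1 edge (one-sided) or H3K27ac that passed both edges (two-sided). The reach of H3K27ac is the distance in bp from an H3K4me3 edge to the far end of the overlapping H3K27ac peak. The files are in the mouse build mm9, and the annotation at hand is of another build, so regions are named by position, left and right mean lower and higher coordinates, and no gene, start site or tissue marker was looked up. Every measure was taken in the 4 pairs of 1 H3K4me3 and 1 H3K27ac library, and 4 values in a row follow the order replicate 1 with 1, 1 with 2, 2 with 1 and 2 with 2 (H3K4me3 first). The 4 pairs share libraries and regions of 1 genome are not replicates, so the pairs show a range and carry no standard error or test.

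H3K27ac peaks were more numerous than H3K4me3 peaks, narrower at the median and longer in the upper tail. Median H3K4me3 width was 1602 and 1679 bp in the 2 libraries, and median H3K27ac width 1260 and 1280 bp. The 95th percentile of width was 4215 and 4724 bp for H3K4me3 against 7535 and 7479 bp for H3K27ac. Peaks of 10 kb or more numbered 13 and 38 for H3K4me3 and 837 and 681 for H3K27ac. H3K4me3 covered 25.8 and 33.4 Mb and H3K27ac 64.8 and 53.2 Mb. The 2 marks did not overlap in any of these measures (exact permutation test over libraries, two-sided p = 0.3333 for number, median width, 95th percentile and covered length, the smallest p that 2 against 2 libraries can give). The lists hold no read counts, so the sequencing depth behind each of them is unknown, and shallow sequencing can shorten or remove peaks.

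About 2 in 3 H3K4me3 peaks carried H3K27ac. At a reach of 1 bp, the split of these peaks over the classes varied by pair. Inside peaks made up 28.1% to 40.1% of them, one-sided peaks 27.6% to 35.4% and two-sided peaks 32.2% to 36.5%. H3K4me3 peaks without H3K27ac made up 28.8%, 31.9%, 33.1% and 36.0% of all (4040, 4476, 5587 and 6071 peaks). H3K27ac stayed inside both edges at 20.0%, 23.3%, 22.7% and 25.7%. It passed 1 edge at 25.2%, 22.7%, 20.5% and 17.7%, and both edges at 26.0%, 22.0%, 23.7% and 20.7%. One-sided peaks had no preferred side, since 50.2% to 50.5% of them reached to the right. The share with none was higher with H3K27ac replicate 2, the shorter H3K27ac list, and with H3K4me3 replicate 2, the longer H3K4me3 list. The class depends on how far a peak must reach to count: at a reach of at least 200 bp, the fragment size of the protocol, two-sided peaks averaged 17.9% and one-sided peaks 18.0% over the 4 pairs, against 23.1% and 21.6% at 1 bp, and at 1000 bp they averaged 10.2% and 11.6%. Inside peaks averaged 22.9% at 1 bp, 31.7% at 200 bp and 45.8% at 1000 bp.

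**Figure D1:**
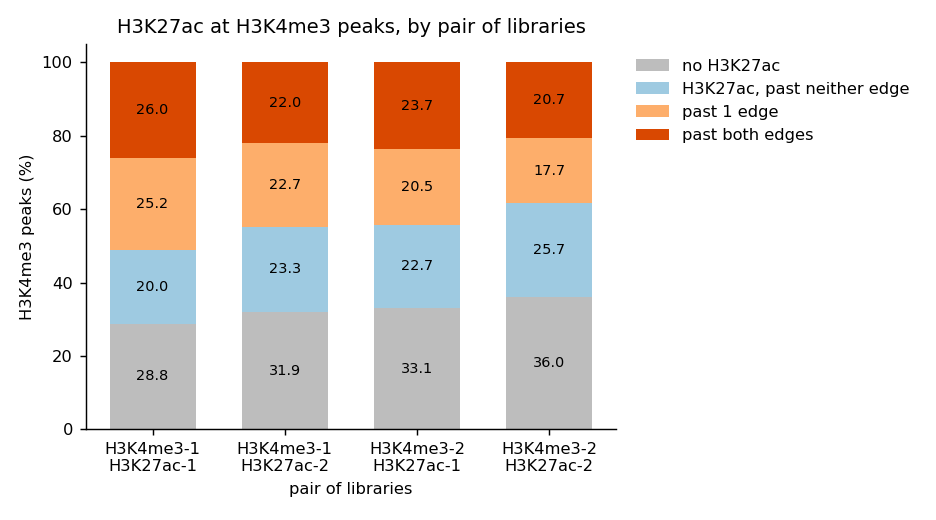
Percentage of the H3K4me3 peaks of each library (vertical axis) with no H3K27ac, with H3K27ac inside both edges, past 1 edge or past both edges, for the 4 pairs of libraries (horizontal axis; the number after each mark is the replicate). Each bar sums to all H3K4me3 peaks of the library, and the share without H3K27ac runs from 28.8% to 36.0%.

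An H3K4me3 edge was about as often passed by H3K27ac as not, and few edges were passed by 5 kb or more. Of all edges of H3K4me3 peaks with H3K27ac, 54.2%, 49.1%, 50.8% and 46.1% were passed. The median reach at passed edges was 744.5, 720, 1070 and 1080 bp, so the 2 pairs with H3K4me3 replicate 2 had the longer reach. The upper quartile lay between 2492 and 3148 bp. H3K27ac went 1 kb or more past 23.6%, 21.0%, 26.1% and 23.8% of edges, and 5 kb or more past 7.38%, 6.37%, 8.14% and 6.85%. On the other hand, 28.7%, 28.7%, 23.7% and 23.0% of all these edges had their H3K27ac edge within 200 bp on either side. The longest reach, 73069 bp, ran along 1 H3K27ac peak that also held other H3K4me3 peaks.

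Replicate edges set the scale for these distances. At regions where both libraries had 1 peak, the edges of the 2 H3K4me3 replicates lay a median of 153 bp apart (13417 regions) and those of the 2 H3K27ac replicates 176 bp apart (16170 regions). H3K4me3 replicate 1 was the wider of the 2 at 11.2% of regions and H3K27ac replicate 1 at 67.7%. The median reach at one-sided peaks was 338, 293, 384 and 347 bp, and their bare edge fell short of the H3K4me3 edge by a median of 282.5, 332, 338 and 368 bp. A typical one-sided peak was thus offset from its H3K27ac by about as much on either end. Two-sided peaks had longer and unequal sides: the lesser side had a median of 576, 637, 926 and 991 bp and the greater side 2215, 2262, 2794 and 2713 bp. The greater side was at least 3 times the lesser at 48.0%, 46.7%, 43.9% and 41.6% of two-sided peaks. In 98.1% to 99.2% of them 1 single H3K27ac peak passed both edges.

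Classes recurred between libraries for most regions, more so for the extremes than for one-sided spread. Of 13600 H3K4me3 regions found in both H3K4me3 libraries, 8854 (65.1%) had the same class in all 4 pairs. These were 3743 without H3K27ac, 2001 with H3K27ac inside, 1199 one-sided and 1911 two-sided. Of the 1199, 1159 were passed on the same side in all 4 pairs, while 321 regions were passed on the left only in 1 pair and on the right only in another. A change of the H3K27ac library kept the class at 77.3% (H3K4me3 replicate 1) and 78.3% (replicate 2) of regions, and a change of the H3K4me3 library at 84.4% (H3K27ac replicate 1) and 85.3% (replicate 2).

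H3K27ac passed H3K4me3 edges far less often than the other 2 methylation states did, yet where it passed it went about as far as H3K4me1. Averaged over the 2 H3K4me3 libraries, H3K27ac passed 52.5% and 47.6% of the edges of the H3K4me3 peaks it met (replicates 1 and 2). H3K4me1 passed 91.1%, 83.6% and 88.0% (3 libraries) and H3K4me2 98.7% and 97.9%. H3K27ac was below H3K4me1 by 37.6 percentage points (50.04% ± 3.50, SD, n = 2, against 87.6% ± 3.77, n = 3; exact permutation p = 0.2, adjusted p = 0.359 over 14 comparisons) and below H3K4me2 by 48.2 points (98.3% ± 0.578, n = 2; exact p = 0.3333, adjusted p = 0.359). These are the smallest p-values that 2 against 3 and 2 against 2 libraries can give, and no library of one mark overlapped those of another. The median reach of H3K27ac, 907 and 900 bp, lay within the H3K4me1 libraries' 1039, 886 and 914 bp (difference 42.5 bp lower, exact permutation p = 0.8, adjusted p = 0.8), and above the 631 and 678 bp of H3K4me2 (exact p = 0.3333, adjusted p = 0.359). Reach of 5 kb or more was found at 7.76% and 6.61% of edges for H3K27ac, 12.9%, 9.11% and 10.8% for H3K4me1 and 4.52% and 6.60% for H3K4me2.

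Among H3K4me3 peaks that carry H3K27ac, cover by position changed order around the edge. At 1 kb inside the edge, H3K27ac covered 91.1% and 88.0% of the positions (edges of peaks long enough to have one), against 76.9%, 48.8% and 66.7% for H3K4me1. At 200 bp outside, H3K27ac covered 42.0% and 37.7%, H3K4me1 89.8%, 76.9% and 84.8%, and H3K4me2 92.6% and 92.9%. At these peaks H3K27ac was thus above every H3K4me1 library at 1 kb inside and below every one of them at 200 bp outside. The choice of peaks with H3K27ac raises its cover inside, and no such choice was made for H3K4me1. The order inside therefore cannot be read as that of all H3K4me3 peaks. The order had turned before the edge, as H3K27ac covered 66.6% and 61.6% at 200 bp inside and H3K4me1 97.5%, 88.0% and 95.5%. At 1 kb outside, H3K27ac fell to 25.7% and 23.3% and at 10 kb to 13.9% and 11.9%. H3K4me2 came down from its high cover at the edge to 14.2% and 16.3% at 10 kb, close to H3K27ac.

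**Figure D2:**
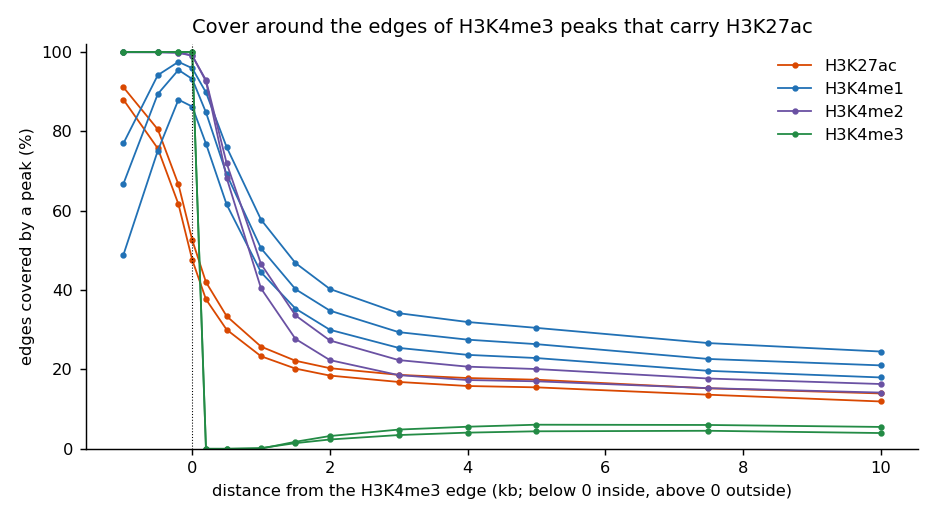
Percentage of H3K4me3 edges covered by a peak of each library (vertical axis) at distances from 1 kb inside to 10 kb outside the edge (horizontal axis, kb), for H3K4me3 peaks that carry H3K27ac; 1 line per library, coloured by mark, each the mean over the H3K4me3 lists or pairs. H3K27ac drops from 91.1% and 88.0% at 1 kb inside to 25.7% and 23.3% at 1 kb outside, while H3K4me1 is highest near the edge; H3K4me3 is 100% inside and near 0 just outside because the edges are its own.

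Outside H3K4me3, the H3K27ac that extended from it lay mostly on H3K4me1. The spread, the bases of H3K27ac peaks with H3K4me3 that lay outside H3K4me3, made up 16.4 Mb on average over the 4 pairs, against 19.0 Mb shared by both marks and 23.6 Mb of H3K27ac peaks with no H3K4me3. H3K4me1 covered 89.8% ± 3.50 of the spread (SD, n = 3 libraries), 75.6% ± 9.19 of the shared stretch and 68.4% ± 4.24 of H3K27ac without H3K4me3. The spread was above the shared stretch in 3 of 3 H3K4me1 libraries by 14.3 ± 5.69 percentage points (exact sign-flip permutation test, two-sided p = 0.25, the smallest for 3 libraries) and above H3K27ac without H3K4me3 by 21.4 ± 1.02 points (3 of 3, exact p = 0.25). The difference between spread and shared stretch was 18.9 points with −log10 q of at least 5 in the H3K4me3 and H3K27ac lists alone, and 29.9 points with that limit in the H3K4me1 lists too. H3K4me2 covered 99.9% of the shared stretch in both libraries, 65.9% and 77.4% of the spread and 39.1% and 49.2% of H3K27ac without H3K4me3 (exact sign-flip p = 0.5 for either step, the smallest for 2 libraries).

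Proerythroblast ATAC summits, the highest points of the ATAC peaks, were concentrated on the shared stretch. Per 100 kb there were 51.7 and 57.7 summits on the shared stretch (ATAC replicates 1 and 2), 4.69 and 8.14 on the spread and 6.58 and 15.3 on H3K27ac without H3K4me3. The shared stretch was above the spread in both libraries, and so was H3K27ac without H3K4me3. The ATAC cells are 1 cell type of the liver and the marks were read in the whole organ, so regions active in other liver cells can lack an ATAC peak.

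The 4 classes differed in the H3K4me3 itself. Where H3K27ac stayed inside or passed 1 edge, H3K4me3 was strong and broad: the median fold enrichment, the authors' value over the peak caller's background, was 9.32, 9.78, 11.1 and 11.7 for inside peaks and 9.96, 10.1, 11.5 and 11.5 for one-sided peaks, and median widths ran from 1895 to 2331 bp and from 2075 to 2578 bp. Two-sided peaks had lower H3K4me3 medians of 6.62, 5.06, 4.05 and 3.82, and widths of 1785, 1669, 1458 and 1298 bp. Peaks without H3K27ac were weak and narrow, at 3.89, 4.01, 3.89 and 3.99 and 844 to 964 bp. The widths of both marks follow in part from the classes themselves. H3K27ac inside both edges must be narrower than the H3K4me3 peak, and H3K27ac past both edges wider. A wide H3K4me3 peak is thus more easily an inside peak, and a narrow one more easily two-sided. Among peaks with H3K27ac, H3K4me3 fold and width rose together, so fold is not independent of the classes either. Median H3K27ac width was 1100 to 1244 bp at inside peaks, 2149 to 2527 bp at one-sided peaks and 5310 to 6129 bp at two-sided peaks. The median fold of the H3K27ac peaks went from 2.72 to 3.15 (inside) through 3.15 to 3.63 (one-sided) to 3.80 to 4.30 (two-sided).

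The weakest H3K4me3 peaks that met H3K27ac lay mostly within it. Each H3K4me3 list was cut into quartiles of its fold enrichment. In the lowest quartile 85.0%, 86.1%, 87.2% and 87.3% of the peaks with H3K27ac were two-sided, on H3K27ac peaks with a median width of 6199, 5691, 5393 and 4838 bp, while the H3K4me3 peak itself had 741, 746, 764 and 772 bp. In the highest quartile 28.6%, 21.5%, 18.8% and 12.9% were two-sided. The share of peaks without any H3K27ac was 57.7%, 59.6%, 56.0% and 57.5% in the lowest quartile and 0.314%, 0.713%, 0.497% and 0.758% in the highest. Weak H3K4me3 peaks thus fell mostly either outside H3K27ac or within H3K27ac that passed both edges by at least 1 bp. How far inside they lay was not measured by quartile. A narrow H3K4me3 peak leaves less length for H3K27ac to pass, so the class is not independent of the width. Among peaks with −log10 q of at least 5 in both marks, the lowest quartile averaged 71.5% two-sided over the 4 pairs, against 86.4% among all peaks.

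A group of H3K4me3 peaks was deeply embedded in H3K27ac, with at least 2 kb of H3K27ac on both sides. These numbered 878, 774, 1149 and 1002, or 24.1%, 25.0%, 28.7% and 28.7% of two-sided peaks. Their median H3K4me3 fold was 3.43, 3.41, 3.51 and 3.54, and 87.0% to 91.1% lay below their library's median fold. The H3K27ac peaks around them had a median width of 12.4 to 13.8 kb. At the centre of embedded peaks H3K4me1 was present in 97.2% to 99.0% (replicate 1), 94.5% to 98.2% (replicate 2) and 95.8% to 98.4% (replicate 3), the range being over the 4 pairs. At the centre of peaks with H3K27ac inside, these shares were 77.6% to 80.0%, 42.0% to 44.8% and 66.6% to 69.2%. H3K4me2 covered the centre of 99.7% to 100% of peaks in either group. An ATAC peak met 77.6% to 81.0% (replicate 1) and 88.4% to 89.3% (replicate 2) of embedded peaks, and 94.4% to 96.3% and 97.8% to 98.5% of inside peaks. Embedded peaks were narrower, with median widths of 998 to 1176 bp against 1895 to 2331 bp, and so offered less length to meet an ATAC peak.

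The width of H3K27ac followed that of H3K4me3 only from 1 kb up. The share of H3K4me3 peaks that met H3K27ac rose from 38.5%, 35.4%, 38.0% and 35.8% of those under 1 kb to 97.7%, 97.2%, 97.7% and 96.8% of those of 5 kb or more. The median width of the H3K27ac peaks on them was 3149, 3159, 3671 and 3495 bp for H3K4me3 peaks under 1 kb. It was 1446, 1287, 1444 and 1298 bp at 1 to 2 kb, lower than in the narrowest class in all 4 pairs. It then grew to 2431, 2147, 2078 and 1856 bp at 2 to 3 kb, to 4190, 3831, 3642 and 3274 bp at 3 to 5 kb, and to 8758, 8003, 7949 and 7070 bp at 5 kb or more. Two-sided spread was also most frequent in the narrowest class: 68.3%, 70.8%, 77.0% and 77.7% of H3K4me3 peaks under 1 kb with H3K27ac. It was lowest at 1 to 2 kb with H3K4me3 replicate 1 (26.8% and 22.7%, against 29.1% and 22.9% at 2 to 3 kb) and at 2 to 3 kb with replicate 2 (19.0% and 15.1%, against 32.6% and 31.2% at 1 to 2 kb). It was 52.1%, 46.3%, 43.0% and 37.7% of those of 5 kb or more. Among peaks under 1 kb, the share averaged 73.4% over the 4 pairs, and 54.6% where both marks were held to −log10 q of at least 5.

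**Figure D3:**
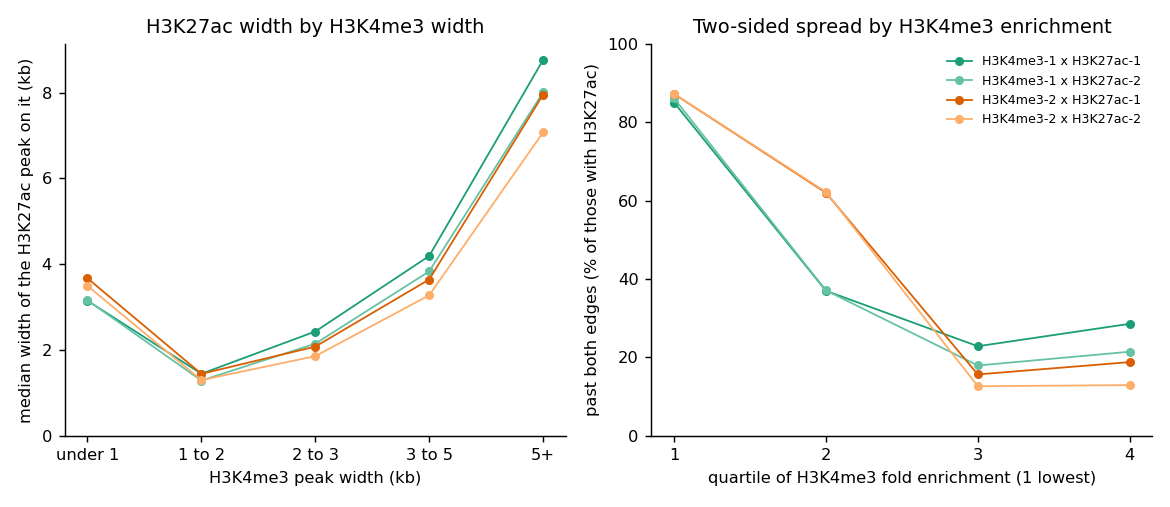
Left, median width of the H3K27ac peak on an H3K4me3 peak (vertical axis, kb) by the width class of the H3K4me3 peak (horizontal axis, kb); right, percentage of H3K4me3 peaks with H3K27ac that were passed on both edges (vertical axis) by quartile of H3K4me3 fold enrichment (horizontal axis, 1 the lowest). Each line is 1 pair of libraries. The left lines are lowest at 1 to 2 kb and highest at 5 kb or more, and the right lines fall from between 85.0% and 87.3% to between 12.9% and 28.6%.

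From the side of H3K27ac, wider peaks met H3K4me3 more often, but the H3K4me3 peaks on them stopped growing. Of H3K27ac peaks under 1 kb, 14.5%, 20.4%, 16.1% and 22.2% met H3K4me3, and of those of 16 kb or more 86.2%, 88.3%, 96.8% and 97.6%. Median H3K4me3 width on them was 1387, 1490, 1588 and 1749 bp for the narrowest class and 2863, 3065, 3010 and 3014 bp at 4 to 8 kb. In the class of 16 kb or more it was 2698, 2510, 3258 and 3018 bp, no more than 1.1 times the value at 4 to 8 kb in any pair. H3K4me3 therefore filled less of the H3K27ac: 91.7% to 93.3% of the bases of the narrowest H3K27ac peaks with H3K4me3 and 19.6%, 20.6%, 26.1% and 27.5% of the bases of the widest. Where 1 peak of each mark met only the other (9021, 8633, 9838 and 9441 cases), widths had a Spearman correlation of 0.433, 0.408, 0.336 and 0.304. It is a description across regions that share libraries and overlap by choice. H3K27ac was the wider of the 2 in 51.9%, 44.5%, 45.8% and 39.5% of these cases.

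One-sided peaks allowed a comparison of both edges of the same H3K4me3 region. The side counts as passed at a reach of 1 bp, and the median reach here was 293 to 384 bp over the 4 pairs. At most passed sides the overlapping H3K27ac therefore ended before 1 kb, so sides are compared, not positions with and without H3K27ac. At 1 kb beyond the edge, H3K4me1 covered 51.6% ± 7.04 of the passed sides and 39.6% ± 8.44 of the bare sides (SD, n = 3 libraries). The difference, 10.4, 13.2 and 12.3 percentage points in the 3 libraries, had a mean of 12.0 ± 1.41 (exact sign-flip permutation p = 0.25, the smallest possible). H3K4me2 covered 42.1% ± 4.33 and 37.8% ± 2.35 (n = 2), a difference of 2.83 and 5.64 points in the 2 libraries (exact p = 0.5, the smallest possible). That difference rested in part on 1 H3K4me3 library, as it averaged 1.78 points without H3K4me3 replicate 2 and 6.69 points without replicate 1. In 1 pair, H3K4me3 replicate 1 with H3K27ac replicate 2, H3K4me2 replicate 1 was no higher on the passed side (41.4% against 41.5%). Many one-sided peaks had methylation on the bare side alone: 16.3% to 19.0% for H3K4me1 and 22.9% to 23.8% for H3K4me2 at 1 kb. On the passed side alone, the shares were 29.4% to 30.2% for H3K4me1 and 26.6% to 28.5% for H3K4me2.

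ATAC leaned to the same side. The strongest ATAC summit within a one-sided H3K4me3 peak lay nearer to the passed edge in 58.8% and 59.7% of peaks (2 libraries) and nearer to the bare edge in 41.2% and 40.2%. An ATAC summit within the first 1 kb outside was rare, at 1.85% and 4.14% of passed sides and 0.587% and 1.59% of bare sides. The difference was 1.27 points in ATAC replicate 1 and 2.54 points in replicate 2 (exact sign-flip permutation p = 0.5, the smallest for 2 libraries), so leaving out replicate 2 lowers it to the first value.

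H3K4me3 without H3K27ac seldom lay next to an H3K27ac peak. The nearest H3K27ac peak lay a median of 35.8, 38.4, 36.2 and 39.5 kb away, and for 41.0%, 42.6%, 40.7% and 43.2% of these H3K4me3 peaks it was 50 kb or more away. Distances from other positions were not measured. Whether those given exceed what the number of H3K27ac peaks alone would give was not tested. Only 1.34%, 1.12%, 1.74% and 1.10% of the H3K4me3 peaks without H3K27ac had an H3K27ac peak within 1 kb, so few lay next to one that stopped just short. Of the H3K4me3 peaks of replicate 1, 3956 (28.2%) met no H3K27ac peak of either library, and of those of replicate 2, 5477 (32.4%). The H3K27ac lists differed mainly in 1 direction: 520 and 594 H3K4me3 peaks met H3K27ac replicate 1 alone and 84 and 110 met replicate 2 alone.

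These peaks kept H3K4me2 more than the other marks. H3K4me2 met 98.7% to 98.8% (replicate 1) and 96.4% to 97.5% (replicate 2) of them. H3K4me1 met 78.6% to 85.2%, 43.4% to 49.6% and 61.6% to 69.8% in its 3 libraries, against 94.8% to 99.8% of the peaks of the other classes. ATAC peaks met 36.7% to 47.6% (replicate 1) and 48.6% to 59.8% (replicate 2), against 76.1% to 98.5% in the other classes. H3K4me3 peaks without H3K27ac were also the narrowest at the median, and so offered less length to meet a peak of another library. By chromosome, the share without H3K27ac averaged from 29.8% on chromosome 11 to 35.9% on chromosome 3, with the X at 35.5%, apart from chromosome Y with 4 H3K4me3 peaks in each library. The 4 pairs differed by about as much within a chromosome, from 27.2% to 32.3% on chromosome 11 and from 32.5% to 39.4% on chromosome 3.

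Most often 1 H3K4me3 peak met 1 H3K27ac peak. Of the groups of overlapping peaks that held both marks, 94.9%, 94.5%, 93.0% and 92.6% were 1 to 1. H3K27ac peaks that held 2 or more H3K4me3 peaks numbered 400, 345, 573 and 501, or 4.17%, 3.70%, 5.32% and 4.78% of the H3K27ac peaks with H3K4me3. Those with 3 or more made up 0.656%, 0.569%, 1.05% and 0.801%, and the most H3K4me3 peaks on 1 H3K27ac peak were 9, 7, 8 and 6. The reverse, 1 H3K4me3 peak across 2 or more H3K27ac peaks, was found at 91, 173, 183 and 279 H3K4me3 peaks. It was more frequent with H3K27ac replicate 2, in which 8.29% of gaps between neighbouring peaks were under 1 kb, against 2.89% in replicate 1. With −log10 q of at least 5 in both marks, joins averaged 1.97% over the 4 pairs, against 4.49% among all peaks.

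Joining went with the length of H3K27ac. The median width of H3K27ac peaks was 1921 to 2177 bp with 1 H3K4me3 peak, 10.5 to 11.3 kb with 2 and 20.7 to 24.4 kb with 3 or more. No H3K27ac peak under 2 kb held 2 H3K4me3 peaks. The smallest gap between H3K4me3 peaks was 942 bp in replicate 1 and 991 bp in replicate 2, so joins could not occur on H3K27ac peaks shorter than these gaps. Joins made up 24.4%, 25.2%, 30.6% and 32.0% of H3K27ac peaks of 8 to 16 kb with H3K4me3, and 57.6%, 58.6%, 67.4% and 67.0% of those of 16 kb or more. The rest of the longest H3K27ac peaks with H3K4me3 held 1 H3K4me3 peak.

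Seen from the gaps, H3K27ac bridged close neighbours and rarely distant ones. Of gaps of 1 to 2 kb between neighbouring H3K4me3 peaks, 51.8%, 46.6%, 48.9% and 44.4% lay wholly within 1 H3K27ac peak. The share was 22.7%, 20.0%, 24.4% and 21.3% at 2 to 5 kb, 8.47%, 6.67%, 8.78% and 6.68% at 5 to 10 kb and 1.28%, 1.10%, 0.976% and 0.621% at 10 to 20 kb. Most neighbours carried H3K27ac on both sides of the gap: 74.8%, 70.2%, 69.8% and 67.5% at 1 to 2 kb and still 62.1%, 58.1%, 56.9% and 53.3% at 10 to 20 kb. The fall in bridging with distance was therefore also present among pairs of H3K4me3 peaks that both had H3K27ac, from 69.3%, 66.4%, 70.1% and 65.7% to 2.06%, 1.90%, 1.72% and 1.17%. For gaps under 5 kb the bridged share averaged 29.4% over the 4 pairs and 15.5% with −log10 q of at least 5.

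**Figure D4:**
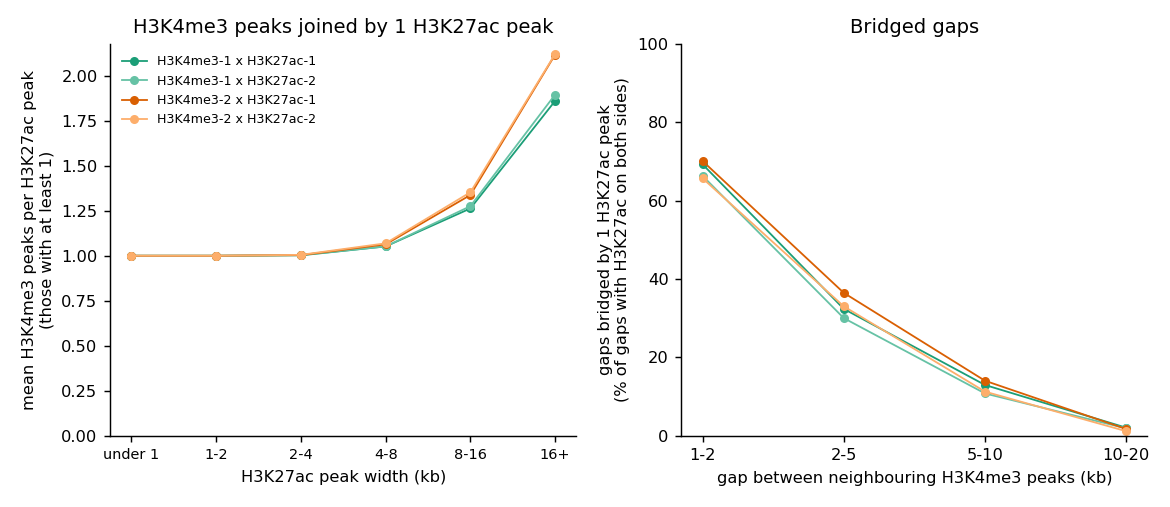
Left, mean number of H3K4me3 peaks per H3K27ac peak with at least 1 (vertical axis) by the width class of the H3K27ac peak (horizontal axis, kb); right, percentage of gaps between neighbouring H3K4me3 peaks, both with H3K27ac, that 1 H3K27ac peak bridged (vertical axis) by gap length (horizontal axis, kb). Each line is 1 pair of libraries. The mean stays at 1 up to 2 kb and reaches 1.86 to 2.12 at 16 kb or more, and bridging falls from 65.7% to 70.1% at 1 to 2 kb to 1.17% to 2.06% at 10 to 20 kb.

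Bridged gaps held more H3K4me1 than unbridged gaps of the same length class. Gaps of 2 to 10 kb with H3K27ac on both neighbours were compared (244 to 439 bridged and 1007 to 1351 unbridged), of which the bridged ones were more often short. H3K4me1 covered 98.4% to 99.5%, 94.7% to 97.4% and 97.5% to 99.5% of the bases of bridged gaps in its 3 libraries, and 54.5% to 58.2%, 40.1% to 44.2% and 47.7% to 51.7% of unbridged gaps. H3K4me2 covered 77.3% to 89.0% and 89.2% to 95.8% of bridged gaps, and 35.4% to 41.3% and 41.1% to 45.6% of unbridged gaps. An ATAC peak was present in 20.0% to 29.1% (replicate 1) and 30.9% to 42.6% (replicate 2) of bridged gaps, and in 11.9% to 18.8% and 23.7% to 29.4% of unbridged gaps. At 2 to 5 kb, H3K4me1 covered 99.2% to 99.7%, 96.8% to 98.1% and 98.7% to 99.7% of bridged gaps and 68.5% to 73.6%, 51.1% to 55.0% and 61.1% to 65.4% of unbridged gaps. At 5 to 10 kb, these were 97.5% to 99.4%, 92.5% to 97.1% and 96.1% to 99.3% against 49.4% to 53.7%, 36.5% to 40.6% and 43.0% to 47.5%. In both length classes the difference had the same sign in all 7 libraries and all 4 pairs. It carries no test, since bridged and unbridged gaps were told apart by H3K27ac and regions are not replicates.

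The region with the most joined H3K4me3 peaks was chr13:23617565-23692036, with 9, 7, 8 and 6 peaks on 1 H3K27ac peak. H3K4me3 peaks covered 55.9% and 65.6% of this region. In contrast, the next region, chr11:84908173-84948653, held 4 H3K4me3 peaks of replicate 1 and 5 of replicate 2 on 1 H3K27ac peak of either library, and H3K4me3 covered 5.26% and 15.6% of it. H3K4me1 covered 98.5% to 100% of the second region. Further joins of 4 or 5 H3K4me3 peaks lay at chr13:75850780-75891153, chr7:127991930-128031434 and chr14:69911184-69943915. In all, 257 of 18236 H3K27ac regions found in both libraries joined 2 or more H3K4me3 peaks in all 4 pairs, and 28 joined 3 or more. The longest gap bridged in all 4 pairs, among 246, was chr16:49777276-49800515, 23240 bp in H3K4me3 replicate 1 and 21159 bp in replicate 2, under H3K27ac peaks of 50222 and 47688 bp. H3K4me1 covered 94.4%, 94.4% and 100% of it. The second longest, chr6:28166424-28181935, had no ATAC peak in either library.

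The longest two-sided spread outside the chromosome 13 cluster was at chr11:32155764-32156945. The H3K4me3 peak there was 361 bp wide in replicate 1 and 964 bp in replicate 2, with fold enrichments of 2.89 in both. H3K27ac reached 20.1 to 21.7 kb past each edge in every pair, with fold enrichments of 10.0 and 7.71. The region at chr7:111007019-111010895 was alike in H3K27ac, which reached 19.5 to 20.2 kb past each edge with fold enrichments of 15.1 and 11.7. Its H3K4me3 was wider, 3689 and 3860 bp, and again weak, with fold enrichments of 3.17 and 4.15. On its right the same H3K27ac peaks also covered further H3K4me3 peaks, as the map of peaks by library shows, so the reach there is not all free of H3K4me3. Both H3K4me3 peaks had fold enrichments below their library's median of 7.05 and 6.50. By contrast, the 9402 bp region chr13:23646241-23655642 within the joined cluster had H3K4me3 folds of 7.11 and 8.64 and H3K27ac on both sides for at least 25450 bp.

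The longest one-sided spread was to the right of chr2:164570544-164574219. H3K4me3 there was 3449 and 3258 bp wide with folds of 9.65 and 11.7. H3K27ac began 216 to 462 bp inside the left edge in the 4 pairs and ran 18604 to 20141 bp past the right edge. It crossed a gap of 10074 bp in H3K4me3 replicate 1 and 11007 bp in replicate 2 to the next H3K4me3 peak, so part of this spread reaches over a neighbour. At chr17:43153021-43156525 the left shortfall was 365 to 464 bp and the reach to the right 17782 to 18353 bp. At chr8:47636206-47638966 the reach was to the left, 14770 to 15818 bp, with a shortfall of 517 to 1019 bp on the right. The H3K4me3 folds at chr17 (10.1 and 12.6) and chr8 (12.7 and 14.5) were above the libraries' medians. At chr13:22120353-22121983, where H3K27ac reached 16022 to 17550 bp to the right, the H3K4me3 fold was 5.73 in replicate 1, below that library's median, and 8.07 in replicate 2, above it.

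**Figure D5:**
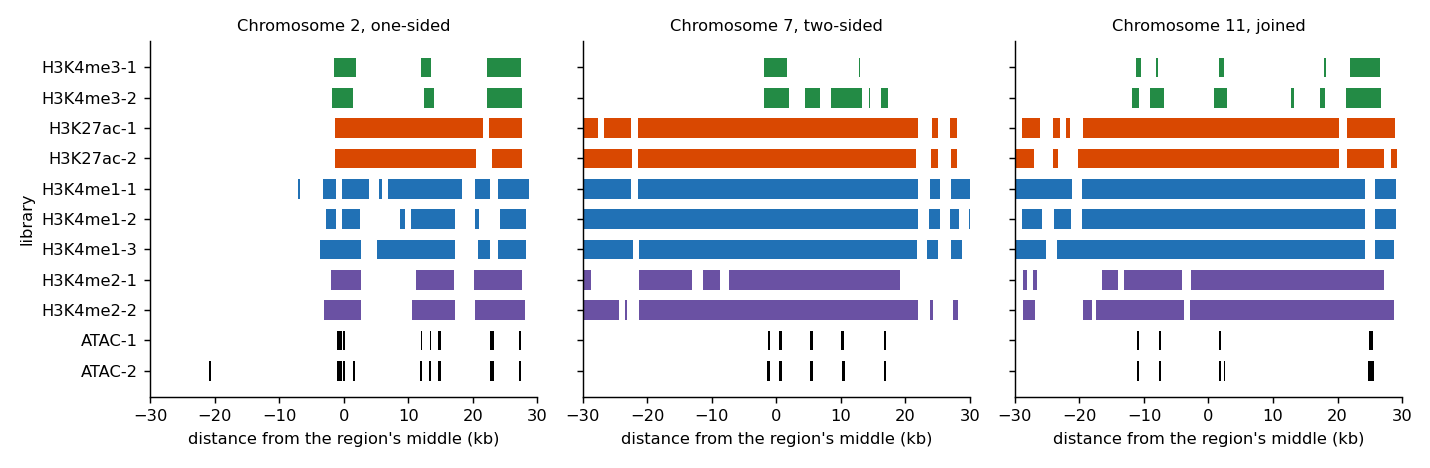
Peaks of 11 libraries (vertical axis) around 3 named regions: left, the one-sided region on chromosome 2; middle, the two-sided region on chromosome 7; right, the joined region on chromosome 11. The horizontal axis is the distance in kb from the middle of the region, cut at 30 kb, and bars are drawn to scale with a minimum drawn width of 0.15 kb. H3K27ac of both libraries starts near the left H3K4me3 edge in the left panel and runs about equally far to both sides in the middle panel.

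Wide H3K4me3 without any H3K27ac was also found. The widest such region was chr11:68930846-68940173, 9058 and 9242 bp in the 2 H3K4me3 libraries with folds of 8.06 and 7.71, where H3K4me1, H3K4me2 and ATAC had peaks in all their libraries. In replicate 1 the 9058 bp spanned 2 H3K4me3 peaks and the gap between them, while replicate 2 had 1 peak. The next 4 were 5839 to 8023 bp wide in replicate 1, the widest of them again over 2 peaks. Their folds in that library, 4.11 to 4.42, were below its median. Of them, chr11:18914160-18921121 had no H3K4me1 peak in replicate 3 and 3 in replicate 1, and chr18:83078836-83084953 had none in replicates 2 and 3, 1 in replicate 1, and an ATAC peak in replicate 1 only. Peaks of 3 kb or more without H3K27ac numbered 67, 89, 170 and 208, so these regions are few. Ranked by the lesser side, H3K4me3 reached furthest beyond H3K27ac at chr5:137041069-137044964. H3K4me3 there was 3744 and 3896 bp wide, and H3K27ac lay inside it at 691 and 604 bp, leaving 1350 to 1434 bp of H3K4me3 on the left and 1697 to 1864 bp on the right. Regions lower in that ranking left more on 1 side, such as chr18:84253921-84261989 with 3847 to 4079 bp on the right.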

How the data were processed

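Each library has its own peak list as deposited by the authors, with no pooling of replicates. Bowtie 1.0.1, Trimmomatic 0.32, MACS2 and SAMtools, with build mm9, are named in the submitters' processing notes. Caller settings, its version and its control: not given in the sources used here. Peak values are the authors' own, as deposited: fold enrichment against the background of the caller, −log10 p, −log10 q, and a score equal to 10 times the −log10 q without its decimals. Fold and −log10 q served only to describe, rank or filter peaks within a list, and folds of different marks are not compared as levels. Peak starts, deposited by the authors counted from 0, are printed counted from 1. ATAC lists also give a summit.

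All autosomal, X and Y peaks entered as deposited (minimum overlap 1 bp, minimum reach 1 bp), and 7 mitochondrial peaks were set aside. Libraries were compared by exact permutation tests, with Benjamini-Hochberg adjustment over 14 comparisons of marks, in Python 3.11.15 with numpy 2.4.6, pandas 2.3.3, scipy 1.17.1 and matplotlib 3.10.9. The scripts for classes and reach were tested on simulated regions. H3K4me3 or H3K27ac regions of both libraries are merged stretches that hold a peak of each. Named regions are the 5 most extreme that held in all 4 pairs, for each of these: one-sided reach, lesser side of two-sided reach, H3K4me3 peaks joined, bridged gap, H3K4me3 width without H3K27ac, and H3K4me3 beyond H3K27ac. The members and lists were chosen with earlier results of these data known. The quartiles of fold, the embedded peaks, the length classes of bridged gaps and the distance to the nearest H3K27ac were added after values had been seen.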

Additional observations from a re-analysis of the deposited data

Results flagged for a closer look

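H3K4me3 replicate 1 had 4 peaks on the mitochondrial chromosome, which the comparisons do not use, above the fixed floor of 3 set for flagging. H3K4me3 replicate 2 had 1, H3K27ac replicate 1 had 0 and H3K27ac replicate 2 had 2.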

How the results depend on the processing

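For 17 results, 172 alternative values were computed. Shares, medians and the width ratio are always positive, so only differences could change direction, and none of these did. The 125 for 12 of the results were judged by size, and 25 moved by more than the spread between pairs or libraries. These 12 carry no test, apart from the H3K4me1 difference between spread and shared stretch. For results taken over pairs, leaving out a library or keeping same-numbered libraries gives a mean of 2 of the 4 pairs. Such a mean always lies within the spread between pairs, so these values could not move and do not show stability. The 47 for the other 5 results, all tested differences, are judged by direction alone. Among these, the H3K4me1 difference at one-sided peaks (12.0 points) was 9.73 without H3K4me3 replicate 2 and 14.2 without replicate 1, shifts above its spread between libraries, as were those of H3K4me2 to 1.78 and 6.69 points. At a reach of at least 200 bp, two-sided peaks made up 17.9%, one-sided 18.0% and inside peaks 31.7% of H3K4me3 peaks, with a median reach of 1410 bp; at 1000 bp these were 10.2%, 11.6%, 45.8% and 3018 bp (at 1 bp 23.1%, 21.6%, 22.9% and 904 bp). With −log10 q of at least 5, 40.4% had no H3K27ac (32.4% among all peaks), 16.4% were two-sided, the median reach was 618 bp, joins made up 1.97% and bridged gaps under 5 kb 15.5%. Joins (4.49%) became 3.58% with equal numbers of peaks per library, 3.76% on regions of both libraries and 5.32% in the 1 pair that shares a tag in the titles. Bridged gaps (29.4%) became 25.9%, 25.7% and 31.6% there, and 31.5% with H3K27ac peaks under 1 kb apart joined. The alternatives chosen after seeing the data were run on 4 of these results; with equal numbers of peaks, two-sided spread was 68.0% of H3K4me3 peaks under 1 kb with H3K27ac and 83.4% of the lowest quartile of fold.

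Leaving out each of the H3K4me3 and H3K27ac libraries in turn gave 30.4% to 34.5% without H3K27ac, 21.3% to 24.9% two-sided, 19.1% to 24.0% one-sided, a median reach of 732 to 1075 bp, 3.94% to 5.05% joined and 27.7% to 31.1% bridged. Replicate numbers name libraries only and nothing in the labels ties them to an embryo, so pairing by number is formal. With the replicate block (same-numbered libraries only) the share without H3K27ac was 32.4% and joins 4.47%, and no result moved. Every H3K4me3 and H3K27ac library enters that block equally, so values over pairs stay near their mean by design. The block therefore cannot show whether these values are stable. Values over pairs with an H3K4me3 or H3K27ac library left out have the same limit, as each averages only part of the pairs. Depth, caller settings and the control are unknown, and each limits where a peak ends.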
